A study of Mus musculus with 9 samples.

Results

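The mitochondrial carriers of the SLC25 family were described in bulk RNA sequencing of mouse kidney. Members were all genes of the deposited table whose symbol is Slc25a followed by digits, which gave 46 of 26139 genes. Of these, 38 reached at least 1 FPKM in at least 3 libraries and were tested, and 8 did not and are given by their levels. FPKM is the number of reads scaled to gene length and to the size of the library, so levels of different genes are compared per length throughout.

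Each of 3 groups was represented by 3 kidney libraries. WT mice were wild-type C57/BL6 animals given saline by gavage. The IgAN group carried Itgam-IRES-hCD89, in which human CD89, an Fc receptor for IgA, is expressed from the locus of the myeloid integrin gene Itgam, on saline as well. Mice of the GQYS group had this knock-in too and were gavaged every day for 5 months with Gui-qi-yi-shen (GQYS) granules, which are a herbal medicine. Which cells of these kidneys hold the receptor was not measured here. The sources used here do not give the age or sex of the mice. Whether libraries of a group stem from different animals is not stated, and p-values therefore reflect only variation among these libraries, which may be technical.

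SLC25 carriers are small membrane proteins, most of them in the inner mitochondrial membrane, that exchange nucleotides, phosphate, carboxylates, amino acids and cofactors between the cytosol and the matrix. The family fold is built from a repeated unit, and each unit has a signature with a proline, an acidic residue and a basic residue near the end of its first helix. Proximal tubule cells are rich in mitochondria and burn fatty acids and lactate, and their reabsorption of salt and solutes depends on the ATP that these carriers export. The label holds for most members but not for all: Slc25a17 is known as a carrier of the peroxisome and Slc25a46 as a protein of the outer mitochondrial membrane.

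Coding sequences of the family show this shared signature, and those of the members on which the results turn are printed here. They were read from the longest complete coding sequence of each gene in GENCODE M21 (build GRCm38), and they are shown for the pairs and single members whose levels are compared further on. Each run is 60 bases of coding strand, 5′ to 3′, and the capitals mark the 18 bases that encode the first signature match.
Slc25a4 (coding bases 61 to 120): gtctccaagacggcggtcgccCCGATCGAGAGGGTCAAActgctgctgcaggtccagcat
Slc25a5 (coding bases 61 to 120): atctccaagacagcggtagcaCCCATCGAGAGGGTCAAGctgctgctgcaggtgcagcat
Slc25a39 (coding bases 70 to 129): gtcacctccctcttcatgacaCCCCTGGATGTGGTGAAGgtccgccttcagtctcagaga
Slc25a40 (coding bases 85 to 144): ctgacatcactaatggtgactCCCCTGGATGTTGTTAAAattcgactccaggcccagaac
Slc25a21 (coding bases 94 to 153): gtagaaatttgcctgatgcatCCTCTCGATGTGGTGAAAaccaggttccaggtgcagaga
Slc25a25 (coding bases 730 to 789): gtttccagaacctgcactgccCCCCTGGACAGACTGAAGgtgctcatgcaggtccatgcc
Slc25a34 (coding bases 97 to 156): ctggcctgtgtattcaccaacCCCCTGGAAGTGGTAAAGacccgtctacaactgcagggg
Slc25a30 (coding bases 52 to 111): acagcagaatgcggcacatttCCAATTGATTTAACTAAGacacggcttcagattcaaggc
The signature of Slc25a25 lies far into the coding sequence because a regulatory domain that binds calcium precedes the carrier part.

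The signature was searched in the translated coding sequences as proline, any residue, an acidic residue, any residue, any residue and lysine or arginine. All 46 members had a coding sequence, with a median length of 318 codons and a range of 265 to 677. At least 1 match was found in 43 members, at least 2 in 38 and at least 3 in 27. At least 2 matches were present in 82.6% of members against 7.33% of 21549 protein-coding genes, and at least 3 in 58.7% against 2.45%. Slc25a46, Slc25a51 and Slc25a53 had 0 matches, which says only that this pattern is not in their sequences.

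Kidney identity of the libraries was checked on fixed marker lists. All 15 proximal tubule markers and all 11 markers of glomerulus and nephron segments were present, and the proximal tubule list summed to 10557 to 11802 FPKM per library. Skeletal muscle markers summed to at most 1.34 FPKM, with Myh4 at 0 in all libraries. Libraries held 30564947 to 38161564 reads assigned to genes, and mitochondrially encoded genes took 7.81% to 18.6% of them. The WT replicate 1 library stood apart, with the highest mitochondrial share and immediate-early genes at 259 FPKM in sum against 75.6 to 85.0 in the other WT libraries. The WT replicate 3 library had urothelial markers (5 genes) at 14.6 FPKM in sum, against 0.596 to 5.38 in the other 8 libraries, and the fat genes Cfd, Adipoq and Ucp1 at 11.4, 2.89 and 1.89 FPKM, against at most 0.158, 0.0796 and 0.0776. The whole fat list (7 genes) summed to 86.1 FPKM there and to 42.5 to 81.4 in the others. Differences of tested members from WT are therefore also given without each of these WT libraries. Neutrophil markers (7 genes) summed to 27.4 to 34.5 FPKM in IgAN, 1.25 to 3.68 in WT and 2.51 to 3.49 in GQYS. Tubular injury markers (8 genes) summed to 543 to 1346 FPKM in IgAN, 434 to 456 in WT and 405 to 572 in GQYS.

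The family was dominated by a few carriers, most of them serving ATP synthesis. Members at or above 100 FPKM on average over the 9 libraries numbered 4, a further 18 lay between 10 and 100, 16 between 1 and 10, and 8 below 1. The first 4 were Slc25a5, Slc25a3, Slc25a4 and Slc25a39, and they made up 67.7% to 70.9% of the summed family FPKM in each library. The first 3 of these, which carry ADP, ATP and phosphate, alone made up 59.96% to 62.97%. The summed level was 2333 ± 87.4 FPKM over the WT libraries, 2371 ± 73.0 over IgAN and 2351 ± 14.04 over GQYS (SD, n = 3 each), and the family took 0.476% to 0.528% of all reads. Group means of the sum thus lay closer to each other than the WT libraries lay among themselves.

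**Figure D1:**
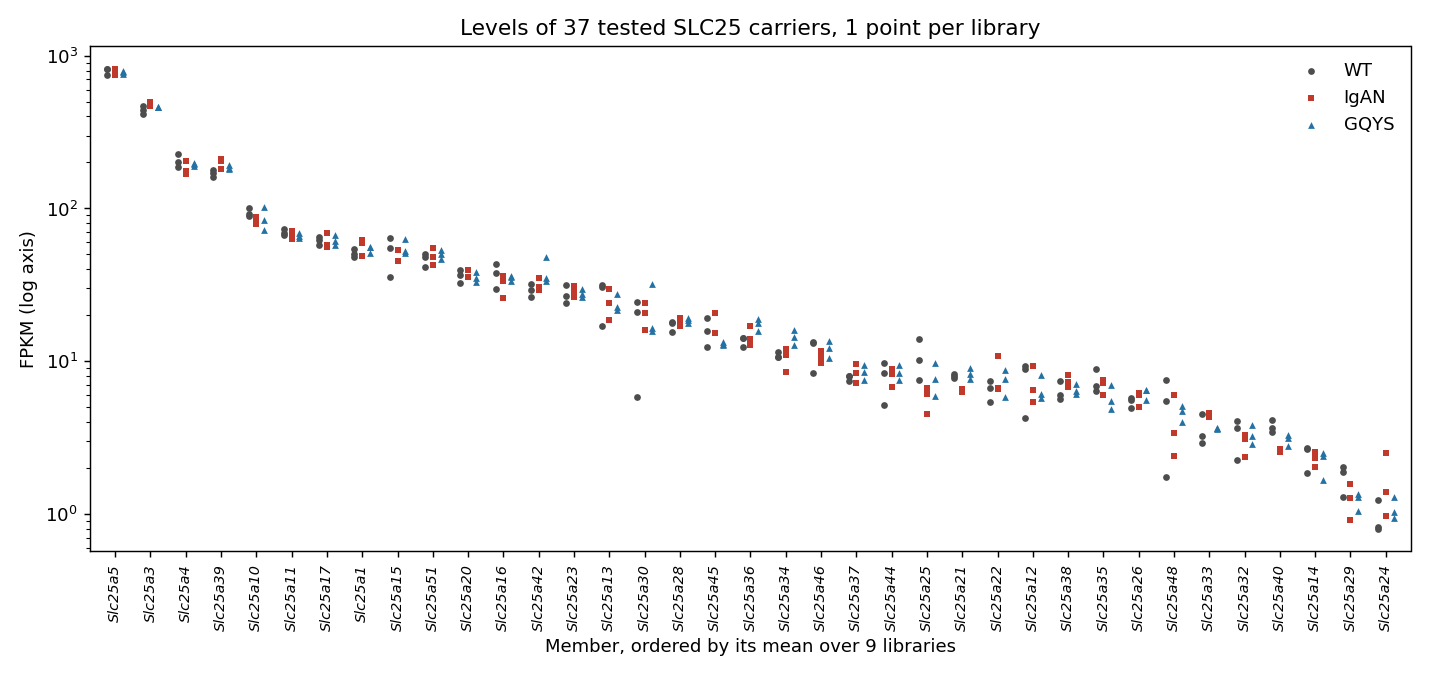
Levels in FPKM (log axis) of 37 of the 38 tested members, ordered by their mean, with 1 point per library and 1 colour and symbol per group. Slc25a5 is highest at 787 FPKM on average and Slc25a24 lowest at 1.22, while Slc25a30 has 1 low WT library at 5.84. The groups overlap in all 3 comparisons for 27 of the 38 tested members. The share of all genes under this rule was not computed, and the text gives shares for each comparison.

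Among the adenine nucleotide carriers, which exchange cytosolic ADP for matrix ATP, Slc25a5 was the leading form. Its level was 751, 816 and 819 FPKM in WT, 750, 817 and 799 in IgAN, and 798, 754 and 781 in GQYS. Slc25a4, the form known for heart and muscle, was at 229, 186 and 201 FPKM in WT, 169, 176 and 206 in IgAN, and 194, 190 and 199 in GQYS. The ratio of Slc25a5 to Slc25a4 ran from 3.28 in WT replicate 1 to 4.65 in IgAN replicate 2, and the groups overlapped. Slc25a31, the testis form, had 1 read in 1 of the 9 libraries. Coding sequences of Slc25a4 and Slc25a5 were 77.4% identical with a longest identical run of 20 bases. In contrast, 63.6% of the 50-base windows of Slc25a5 recurred in at least 1 of 9 annotated pseudogenes, none of which has a row in the table, and the sources used here do not say how such reads were assigned.

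Slc25a3, the phosphate carrier that supplies ATP synthase, was the steadiest tested member. It was at 444, 415 and 466 FPKM in WT, 465, 493 and 500 in IgAN, and 459, 463 and 458 in GQYS. Its SD within groups was 0.0584 on the log2(FPKM + 1) scale, against a median of 0.162 over the 38 members and 0.176 over all tested genes. The 3 GQYS values lay below all IgAN values, but the log2 difference was only -0.08 (SE 0.09, limma adjusted p = 0.888).

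Of the carboxylate carriers, Slc25a10, Slc25a11 and Slc25a1 had high levels, while Slc25a21 was lower. Slc25a10, the dicarboxylate carrier, was at 91.8, 89.1 and 100.5 FPKM in WT, 88.4, 85.0 and 79.6 in IgAN, and 83.5, 72.4 and 102 in GQYS. Its IgAN values lay just below those of WT, with a log2 difference of -0.15 (SE 0.13, limma adjusted p = 0.771) that was -0.17 without WT replicate 1 and -0.10 without WT replicate 3. Slc25a11, which exchanges 2-oxoglutarate for malate, was at 66.6, 73.2 and 69.5 FPKM in WT, 63.2, 71.2 and 68.6 in IgAN, and 69.3, 64.01 and 66.0 in GQYS. Slc25a1, the citrate carrier, averaged 54.0 FPKM over all libraries. Slc25a21, which carries oxodicarboxylates such as 2-oxoadipate of lysine breakdown, averaged 7.56 FPKM and is taken up with the comparisons.

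Of the carriers of aspartate and glutamate, Slc25a13 (citrin) exceeded its paralog Slc25a12 (aralar) 3.19 to 3.99 times in each library. Slc25a13 was at 17.0, 31.8 and 30.6 FPKM in WT, 18.6, 29.6 and 23.9 in IgAN, and 22.6, 27.7 and 21.6 in GQYS. Slc25a12 was at 4.26, 8.88 and 9.31 FPKM in WT, 5.44, 9.29 and 6.44 in IgAN, and 5.76, 8.11 and 6.13 in GQYS. Both were lowest in replicate 1 of WT and of IgAN, and libraries of a group differed more than the group means did. Slc25a22, a glutamate carrier, was at 5.40, 6.70 and 7.37 FPKM in WT, 10.9, 6.61 and 6.70 in IgAN, and 5.79, 8.73 and 7.64 in GQYS, with the highest value in 1 IgAN library. Its paralog Slc25a18 had reads in 3 of the 9 libraries, at most 2 in any one.

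Carriers of other amino acids and of acylcarnitine were intermediate. Slc25a15, the ornithine carrier of the urea cycle, averaged 52.6 FPKM, whereas the other ornithine carrier Slc25a2 averaged 0.131. Slc25a38, linked to glycine import for heme synthesis, averaged 6.75, Slc25a44, a carrier of branched-chain amino acids, 8.07, and Slc25a29, a carrier of basic amino acids, 1.41 FPKM. Slc25a20, which imports acylcarnitines for fatty acid oxidation, averaged 36.3 FPKM and ranged over the libraries from 32.5 to 39.8.

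Cofactor carriers spanned from 61.4 FPKM for the peroxisomal Slc25a17 to 3.19 for Slc25a32, which carries folate and FAD. In between lay the NAD carrier Slc25a51 (48.5 FPKM), Slc25a16 (34.6) and Slc25a42 (33.3), both linked to coenzyme A, and the S-adenosylmethionine carrier Slc25a26 (5.77). The iron carriers Slc25a28 and Slc25a37 (mitoferrins) averaged 17.8 and 8.22 FPKM. Slc25a28 was at 15.5, 17.8 and 18.05 FPKM in WT, 19.2, 17.0 and 17.6 in IgAN, and 18.6, 17.9 and 19.1 in GQYS. Slc25a37, the form of red cell precursors, was at 7.97, 7.98 and 7.44 FPKM in WT, 9.62, 8.32 and 7.19 in IgAN, and 7.58, 8.50 and 9.40 in GQYS. The ratio of Slc25a28 to Slc25a37 was 1.94 to 2.45 with overlapping groups, and Slc25a46 averaged 11.4 FPKM.

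Members to which no substrate is assigned here were Slc25a45 (15.3 FPKM on average), Slc25a34 (11.9), Slc25a35 (6.69), Slc25a48 (4.48), Slc25a47 (0.563), Slc25a43 (0.141) and Slc25a53 (0.0968). Of the carriers that resemble uncoupling proteins, Slc25a30 averaged 19.6 FPKM, Slc25a14 2.30 and Slc25a27 0.358. Slc25a41, a short form of the ATP-Mg/phosphate carriers, had 1 read in 1 of the 9 libraries. Slc25a52 and Slc25a54 were not analysed here. By counting error alone, 0 reads in a library allow up to 3 reads.

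Untreated knock-in kidneys were compared with WT to describe the carriers in the disease model. Of the 38 tested members, 0 passed the threshold of an adjusted p of 0.05 (limma over 11617 genes, Benjamini-Hochberg), where 0.353% of all tested genes did. At an unadjusted p below 0.05, 1 member was higher (Slc25a39) against 6.97% of all genes, and 3 were lower (Slc25a21, Slc25a25 and Slc25a40) against 3.37%. FPKM ranges did not overlap for 1 higher member (Slc25a39, 9.18% of all genes) and for 4 lower ones (the same 3 and Slc25a10, 4.8%). The median log2 difference was 0.02 for the members and 0.02 for all genes, and 20 of 38 members had a difference above 0. Without WT replicate 1 the members at an unadjusted p below 0.05 went from 4 to 11 (4 higher and 7 lower), while the share of all genes went from 10.3% to 19.8%, and still 0 members passed the threshold. Without WT replicate 3 there were 3 such members, all lower, against 9.61% of genes.

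Slc25a40 and Slc25a39, the pair that imports glutathione into mitochondria, had the smallest p in each direction. Slc25a40 was at 3.42, 4.14 and 3.67 FPKM in WT and 2.53, 2.65 and 2.60 in IgAN, from 235 to 480 reads per library over the study. All IgAN values lay under all WT values, with a log2 difference of -0.40 (SE 0.10, limma adjusted p = 0.167). Slc25a39 was at 179, 160 and 171 FPKM in WT and 206, 181 and 211 in IgAN. Here the IgAN values lay above, at 181 against 179 FPKM in the nearest libraries, and the log2 difference was 0.23 (SE 0.10, limma adjusted p = 0.459). Without WT replicate 1 the differences were -0.45 and 0.26 (adjusted p = 0.104 and 0.202), and without WT replicate 3 -0.41 and 0.23. A processed pseudogene, Gm5066, which has no row in the table, shares 29.3% of the 50-base windows of Slc25a40.

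Within each library the ratio of Slc25a39 to Slc25a40 does not depend on library scaling. It was 52.2, 38.6 and 46.6 in WT, 81.4, 68.3 and 81.2 in IgAN, and 65.9, 58.2 and 58.6 in GQYS. The 3 groups did not overlap, with GQYS between the others. Its mean over the WT libraries was 45.8 ± 6.82, with 77.0 ± 7.48 over IgAN and 60.9 ± 4.34 over GQYS (SD, n = 3 each). The log2 differences of the ratio were 0.76 for IgAN against WT, -0.34 for GQYS against IgAN and 0.42 for GQYS against WT. Each had a 2-sided exact permutation p of 0.1, the smallest that 3 against 3 libraries can give, and 0.4 after adjustment over the 12 tests of 4 paralog ratios. The ratio was examined after the levels of both genes were known, and the comparisons share groups. In IgAN against WT and in GQYS against WT, the ranges of both genes were already apart, in opposite directions. The ratio had to separate there, so its p of 0.1 was fixed beforehand and adds nothing to those ranges.

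Slc25a25, a carrier of ATP-Mg and phosphate that calcium activates, had the largest difference in this comparison. It was at 14.02, 7.51 and 10.2 FPKM in WT and 6.63, 6.11 and 4.51 in IgAN. The IgAN values lay under those of WT, whose own libraries spread widely, and the log2 difference was -0.75 (SE 0.23, 95% interval -1.26 to -0.25, limma adjusted p = 0.244). The highest value came from WT replicate 1, the library with high immediate-early genes. Without it the difference was -0.55 (adjusted p = 0.206), without replicate 1 of both groups -0.64 (adjusted p = 0.254) and without WT replicate 3 -0.76. Its paralog Slc25a23 was at 24.0, 26.9 and 31.8 FPKM in WT, 26.4, 31.2 and 28.5 in IgAN, and 26.4, 29.5 and 27.5 in GQYS, with overlapping groups. The third paralog, Slc25a24, was at 0.823, 1.24 and 0.803 FPKM in WT and 2.52, 0.973 and 1.40 in IgAN, with a log2 difference of 0.39 (SE 0.20, adjusted p = 0.553) that was 0.35 without WT replicate 1, 0.34 without WT replicate 3 and 0.11 without replicate 1 of both groups.

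Slc25a21 was at 7.97, 8.28 and 7.74 FPKM in WT and 6.28, 6.54 and 6.41 in IgAN. The groups were tight and apart, with a log2 difference of -0.28 (SE 0.10, limma adjusted p = 0.313) that was -0.28 without WT replicate 1 and -0.30 without WT replicate 3. Slc25a33, a carrier of pyrimidine nucleotides needed for mitochondrial DNA and RNA, was at 4.49, 2.93 and 3.23 FPKM in WT and 4.50, 4.32 and 4.61 in IgAN. WT replicate 1 matched the IgAN values and the other WT libraries lay below. The log2 difference was 0.28 (SE 0.13, adjusted p = 0.500). It was 0.43 without WT replicate 1 (adjusted p = 0.0971) and 0.24 without WT replicate 3. An antisense gene, Gm13068, shares 25.5% of the 50-base windows of Slc25a33. Whether reads of the strands were told apart is not known, because the sources used here do not give the strand setting.

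The 95% interval of the log2 difference excluded a 2-fold difference of FPKM + 1 for 35 of 38 members, all but Slc25a25, Slc25a30 and Slc25a48. The same held for 95.6% of all tested genes. A 1.5-fold difference of FPKM + 1 was excluded for 29 members and 73.2% of all genes. For low members such as Slc25a24 and Slc25a29, a 2-fold difference of FPKM itself is not excluded. In bulk kidney RNA, fewer cells of a type and less RNA per cell cannot be told apart. Neutrophil and tubular injury markers were higher in all IgAN libraries than in all WT libraries, at the sums given above, and their part in these differences was not tested.

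**Figure D2:**
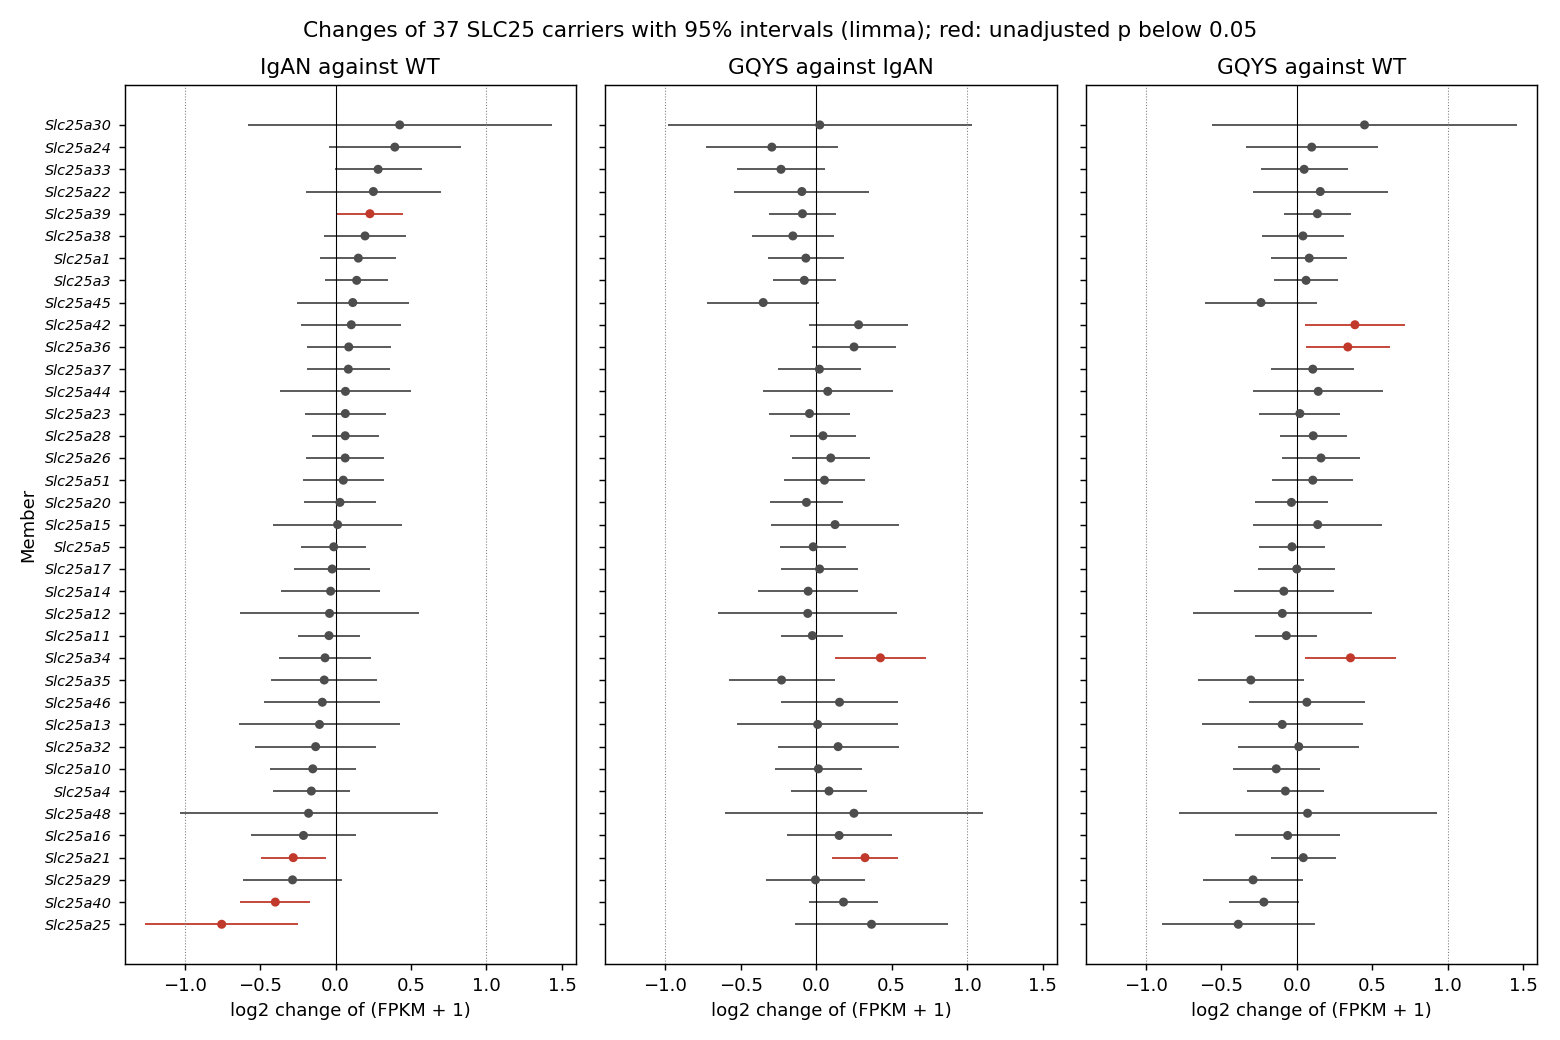
Log2 differences of FPKM + 1 with 95% intervals (limma) for 37 of the 38 tested members in the 3 comparisons, ordered by IgAN against WT; dotted lines mark 2-fold and red marks an unadjusted p below 0.05. Slc25a25 lies lowest at -0.75 in IgAN against WT, most other points lie near 0, and no member passed an adjusted p of 0.05.

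In GQYS-treated against saline-treated knock-in kidneys, the comparison addresses the treatment, and it shares the IgAN libraries with the one above. Again 0 of 38 members passed the threshold (limma), against 0.198% of all tested genes. At an unadjusted p below 0.05, 2 members were higher (Slc25a21 and Slc25a34) against 5.53% of genes and 0 were lower against 4.9%. Ranges were apart for 3 higher members (Slc25a21, Slc25a34 and Slc25a40, 9.84% of genes) and 3 lower ones (Slc25a3, Slc25a33 and Slc25a45, 9.29%). The median log2 difference was 0.02 for the members and 0.01 for all genes.

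Slc25a21 was at 8.28, 7.61 and 8.98 FPKM in GQYS against 6.28, 6.54 and 6.41 in IgAN. All GQYS values lay above, with a log2 difference of 0.32 (SE 0.10, limma adjusted p = 0.259), and they overlapped the WT values of 7.74 to 8.28. Slc25a34 was at 14.4, 15.9 and 12.8 FPKM in GQYS, 8.44, 11 and 12.1 in IgAN and 10.7, 10.6 and 11.5 in WT. All GQYS values lay above both other groups, with a log2 difference from IgAN of 0.43 (SE 0.14, limma adjusted p = 0.296) that was 0.29 without IgAN replicate 1 (adjusted p = 0.652). Slc25a36, the other carrier of pyrimidine nucleotides, was at 15.9, 18.9 and 17.7 FPKM in GQYS, 12.8, 13.9 and 17.1 in IgAN and 12.5, 14.2 and 14.2 in WT. Its GQYS and IgAN ranges overlapped (log2 difference 0.25, SE 0.12, adjusted p = 0.556), and 69.3% of its 50-base windows recur in the pseudogene Gm13217, which has no row in the table.

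On the lower side, Slc25a45 was at 12.7, 13.0 and 13.3 FPKM in GQYS, 20.8, 15.2 and 15.2 in IgAN and 19.3, 12.4 and 15.7 in WT. The GQYS libraries were close to each other and below all of IgAN, with a log2 difference of -0.35 (SE 0.17, adjusted p = 0.522) that was -0.21 without IgAN replicate 1. Slc25a33 was at 3.67, 3.63 and 3.68 FPKM in GQYS, also below all IgAN values (log2 difference -0.23, SE 0.13, adjusted p = 0.614). Slc25a24 was at 0.943, 1.29 and 1.03 FPKM in GQYS, overlapping IgAN (log2 difference -0.29, SE 0.20, adjusted p = 0.700). For the glutathione carriers, Slc25a40 was at 2.80, 3.13 and 3.30 FPKM in GQYS, above all IgAN values and below all WT values (log2 difference from IgAN 0.18, SE 0.10, adjusted p = 0.628). Slc25a39 was at 184, 182 and 193 FPKM in GQYS, with overlap with IgAN (log2 difference -0.09, SE 0.10, adjusted p = 0.869). Slc25a25 was at 5.92, 9.72 and 7.65 FPKM in GQYS, overlapping both groups (log2 difference from IgAN 0.37, SE 0.23, adjusted p = 0.661).

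A 2-fold difference of FPKM + 1 was excluded by the 95% interval for 36 of 38 members, all but Slc25a30 and Slc25a48. A 1.5-fold one was excluded for 30. For low members such as Slc25a24 this does not exclude a 2-fold difference of FPKM itself. The corresponding shares of all genes were 95.6% and 73.9%. Neutrophil markers were lower in all GQYS than in all IgAN libraries, while tubular injury markers overlapped between GQYS (405 to 572 FPKM in sum) and IgAN (543 to 1346). Their part was not tested.

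**Figure D3:**
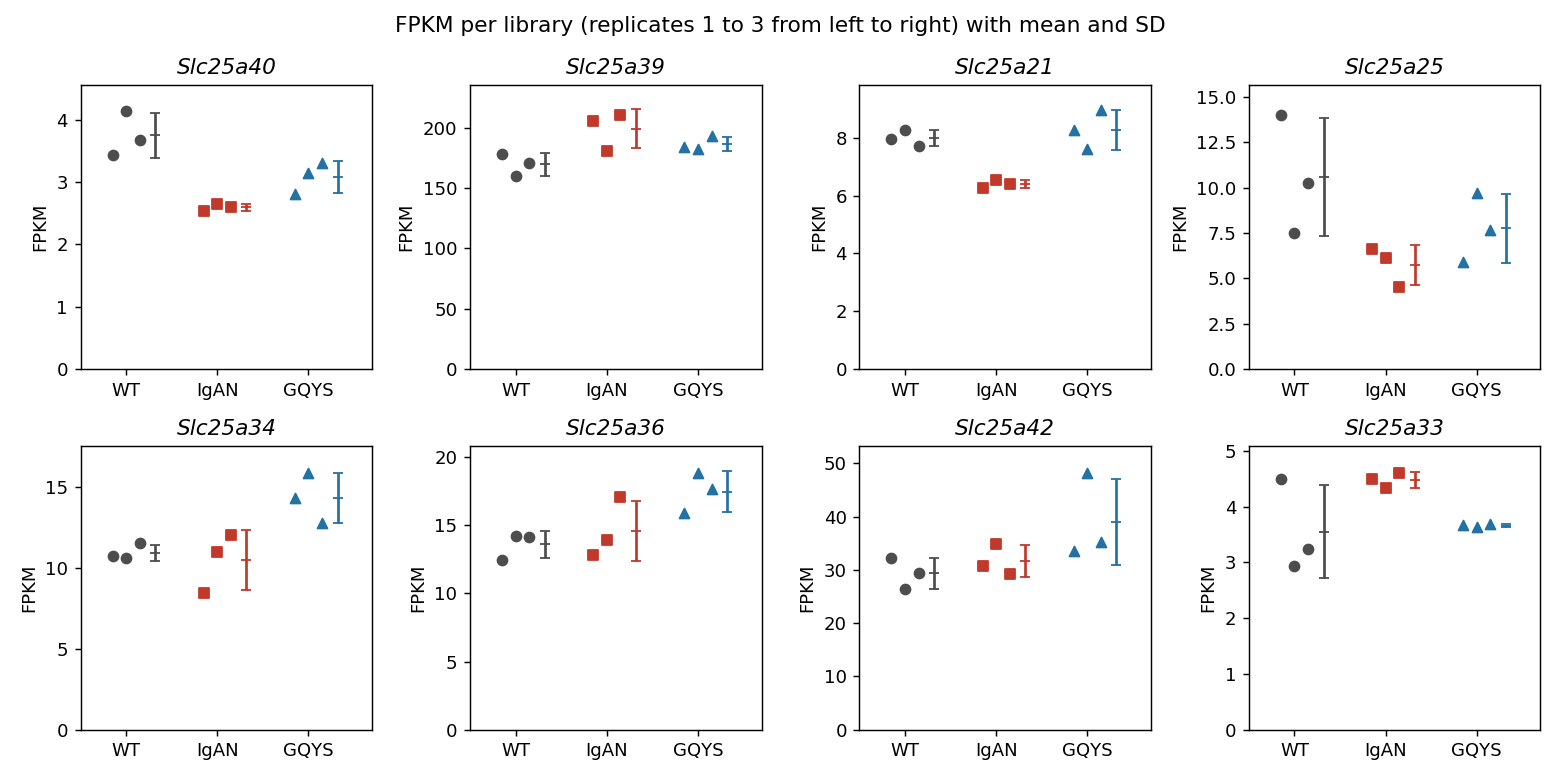
FPKM of 8 members with small p in at least 1 comparison, 1 point per library with replicates 1 to 3 from left to right, and the mean with SD beside each group; axes start at 0. Slc25a40 and Slc25a21 have IgAN libraries close together below WT, at 2.53 to 2.65 and 6.28 to 6.54 FPKM, while the WT libraries of Slc25a25 spread from 7.51 to 14.02.

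In GQYS-treated knock-in against WT kidneys, 0 of 38 members passed the threshold (limma), as did 0.0% of all tested genes. At an unadjusted p below 0.05, 3 members were higher (Slc25a34, Slc25a36 and Slc25a42) against 3.33% of genes, and 0 were lower against 1.1%. Ranges were apart for 4 higher members (the same 3 and Slc25a39, 7.14% of genes) and for 1 lower member (Slc25a40, 2.61%). The median log2 difference was 0.04 for the members and 0.03 for all genes. Without WT replicate 1 the members at an unadjusted p below 0.05 went from 3 to 4 (2 higher and 2 lower), while the share of all genes went from 4.43% to 9.31%. Without WT replicate 3 there were 2, both higher, against 4.33% of genes.

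Slc25a42, which carries coenzyme A into the matrix, was at 33.5, 48.3 and 35.3 FPKM in GQYS, 32.2, 26.4 and 29.4 in WT and 30.7, 34.9 and 29.2 in IgAN. The GQYS values lay above WT, with a wide spread of their own, and the log2 difference was 0.39 (SE 0.15, limma adjusted p = 0.999). It was 0.23 without GQYS replicate 2, the library with the highest value. Slc25a36 and Slc25a34 had log2 differences of 0.34 and 0.36 (SE 0.12 and 0.14), both at a limma adjusted p of 0.999. Slc25a40 differed from WT by -0.22 (SE 0.10, adjusted p = 0.999). Slc25a29 was at 2.04, 1.29 and 1.89 FPKM in WT, 0.915, 1.57 and 1.26 in IgAN, and 1.29, 1.05 and 1.35 in GQYS (log2 difference of GQYS from WT -0.29, SE 0.15, adjusted p = 0.999). Slc25a35 was at 6.35, 6.86 and 8.92 FPKM in WT, 5.999, 7.49 and 7.25 in IgAN, and 7.004, 5.51 and 4.85 in GQYS (log2 difference of GQYS from WT -0.30, SE 0.16, adjusted p = 0.999). For both, GQYS and WT ranges overlapped. Without WT replicate 1 the log2 differences were 0.45 for Slc25a42, 0.28 for Slc25a36, 0.34 for Slc25a34, -0.27 for Slc25a40, -0.21 for Slc25a29 and -0.39 for Slc25a35 (limma adjusted p = 0.525 to 0.638). Without WT replicate 3 they were 0.39, 0.37, 0.39, -0.23, -0.25 and -0.18 in the same order (each at an adjusted p of 0.997).

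The 95% interval lay within 2-fold on the scale of FPKM + 1 for 37 of 38 members, all but Slc25a30, and for 97.6% of all genes. For low members such as Slc25a29 this does not limit FPKM itself to 2-fold. It lay within 1.5-fold for 26 members, or 68.4%, against 80.1% of all genes.

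The 8 members that were not tested were low in every library, and a fit without a filter on low values placed none of them past the threshold. Slc25a27, known mainly from brain, was at 0.380, 0.257 and 0.277 FPKM in WT, 0.296, 0.334 and 0.251 in IgAN, and 0.492, 0.518 and 0.416 in GQYS, from 102 to 237 reads per library. All GQYS values lay above the others, with limma adjusted p of 0.267 against IgAN and 0.790 against WT in that fit. Slc25a2 was at 0.296, 0.136 and 0.144 FPKM in WT, 0.0243, 0.0649 and 0.0888 in IgAN, and 0.0443, 0.0985 and 0.285 in GQYS, from 1 to 14 reads per library. Its IgAN values lay under those of WT (limma adjusted p = 0.604 in that fit), at a depth of few reads. Slc25a27 and Slc25a2 were picked after their values were seen. How often ranges lie apart among all untested genes was not computed.

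Libraries of a group differed most for Slc25a30 and Slc25a48, chosen here after their values were seen. Slc25a30, which takes its other name, kidney mitochondrial carrier, from its tissue, was at 5.84, 24.6 and 20.8 FPKM in WT, 16.1, 24.1 and 20.6 in IgAN, and 16.5, 32.1 and 15.7 in GQYS. Slc25a48 was at 1.74, 5.47 and 7.51 FPKM in WT, 2.41, 5.98 and 3.36 in IgAN, and 3.99, 5.10 and 4.75 in GQYS. Replicate 1 was lowest in WT and IgAN for both genes. WT replicate 1 lay 3.89-fold under the mean of the other WT libraries for Slc25a30, 3.73-fold for Slc25a48, 2.14-fold for Slc25a12 and 1.84-fold for Slc25a13, and 1.58-fold above it for Slc25a25. Within-group SDs on the log2 scale were 0.698, 0.585, 0.395 and 0.353 for the first 4, so group differences of these members had the widest intervals.

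The share of mitochondrially encoded reads varied in the same libraries. It was 18.6%, 10.5% and 9.15% in WT, 11.3%, 7.81% and 10.7% in IgAN, and 11.8%, 10.4% and 13.3% in GQYS. In all 3 groups the library with the highest share was the lowest of its group for 6 of 38 members (Slc25a13, Slc25a15, Slc25a30, Slc25a35, Slc25a44 and Slc25a51), or 15.8% against 14.7% of all tested genes. It was the highest of its group for 1 member, Slc25a45, or 2.63% against 9.85% of genes. WT replicate 1 held the lowest or highest value of all 9 libraries for 18 members, 47.4% against 47.7% of genes, which is a share near that of all genes. The part of the mitochondrial share in these differences was not tested.

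**Figure D4:**
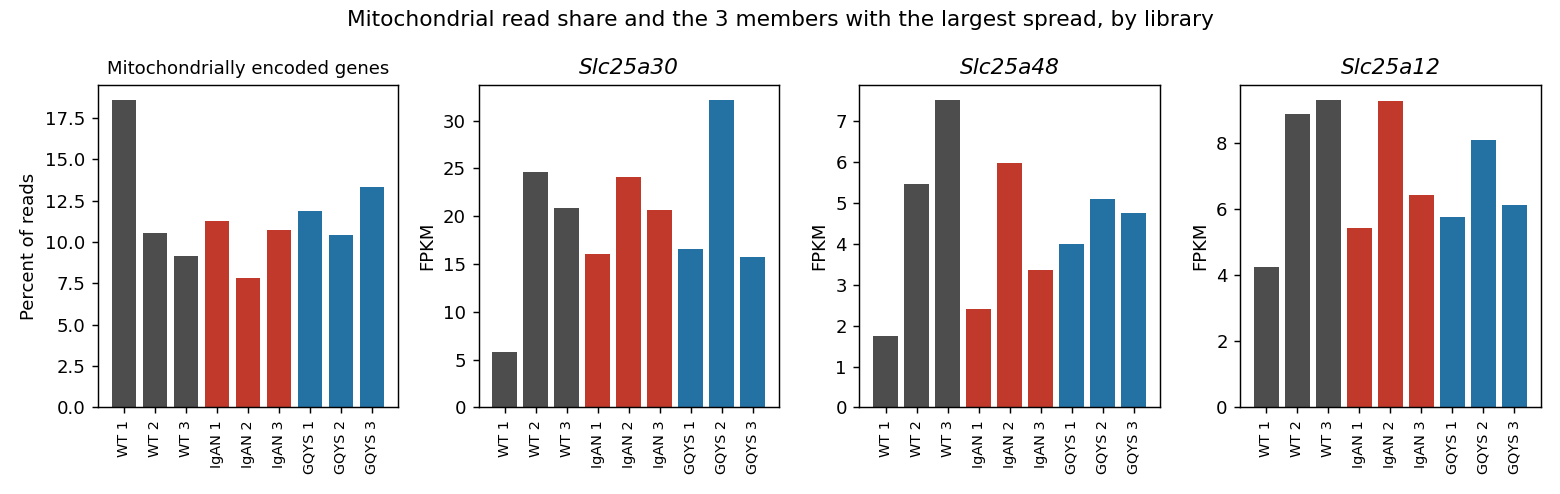
Percent of reads from mitochondrially encoded genes and FPKM of Slc25a30, Slc25a48 and Slc25a12 in each of the 9 libraries (bars from 0, coloured by group). WT replicate 1 has the highest mitochondrial share (18.6%) and the lowest bar for all 3 members (5.84, 1.74 and 4.26 FPKM).

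Further genes of mitochondrial transport were taken from fixed lists. Of the family members under other symbols (Ucp1, Ucp2, Ucp3, Mtch1 and Mtch2), 3 were tested, and Ucp2 passed the threshold in IgAN against WT. Ucp2, named an uncoupling protein and known for exchange of carboxylates and for its presence in immune cells, was at 31.2, 26.2 and 24.8 FPKM in WT, 64.6, 50.9 and 52.6 in IgAN, and 27.6, 37.8 and 41.3 in GQYS. It rose in IgAN by 1.004 on the log2 scale (SE 0.16, limma adjusted p = 0.0369), with all IgAN values above both other groups. The call held when WT replicate 1 or GQYS replicate 1 was left out (adjusted p = 0.0273 and 0.0301) and was lost without any one of the other 7 (replicates 2 and 3 of WT, all 3 of IgAN, and replicates 2 and 3 of GQYS), at adjusted p of 0.0576 to 0.139 and log2 differences of 0.90 to 1.10 over the 9 refits. It was also lost with median-of-ratios scaling, quantile normalization, no filter on low values and a fit of the 2 groups alone (adjusted p = 0.0648, 0.0743, 0.106 and 0.0786). GQYS against IgAN gave -0.65 (SE 0.16, adjusted p = 0.173). Neutrophil markers were higher in the same 3 IgAN libraries, and their part was not tested.

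Of 24 tested genes for other mitochondrial transport (channels, pyruvate and calcium carriers, sideroflexins, acylcarnitine enzymes and import subunits), 0 passed in any comparison (limma). At an unadjusted p below 0.05 there was 1 gene, Slc8b1, higher in GQYS than in IgAN (5.53% of all genes) and than in WT (3.33%). This sodium-calcium exchanger of the inner membrane was at 4.87, 5.00 and 5.12 FPKM in GQYS, 3.94, 3.55 and 3.70 in IgAN and 3.28, 4.06 and 4.06 in WT (limma adjusted p = 0.271 against IgAN and 0.927 against WT). Of 16 genes of mitochondrial biogenesis and dynamics, 0 passed. At an unadjusted p below 0.05, Ppargc1b alone was lower in IgAN than in WT (3.37% of all genes). It alone was higher in GQYS than in IgAN (5.53%). Ppargc1b, a coactivator of mitochondrial genes, had the smallest p among them for IgAN against WT, at 1.61, 1.48 and 1.14 FPKM against 1.89, 1.90 and 2.09 (adjusted p = 0.390). Of 18 partner enzymes of the malate-aspartate, citrate and urea routes 0 passed, with 4 lower and 0 higher at an unadjusted p below 0.05 in GQYS against IgAN, where 4.9% of all genes were lower. In IgAN against WT 2 were higher (6.97% of genes) and 0 lower, and in GQYS against WT 1 was lower (1.1% of genes) and 0 higher. Got1, the cytosolic aspartate aminotransferase of the shuttle that Slc25a12 and Slc25a13 serve, was at 45.6, 47.4 and 39.2 FPKM in GQYS, 62.9, 66.5 and 59.8 in IgAN and 37.8, 49.3 and 52.4 in WT. Its IgAN values lay above both other groups, with adjusted p of 0.244 against WT and 0.192 for GQYS against IgAN.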

How the data were processed

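The members and gene lists were chosen with earlier results of these data known. Expression was taken as FPKM, as deposited by the authors for 26139 symbols and 9 libraries. Per the submitters' processing notes, GRCm39, fastp, HISAT2, HTSeq, R 3.2.0 and DESeq2 were used, with roles unstated. Per the labels' protocols, RNA was isolated with TRIzol and the library kit was VAHTS Universal V6. The sources used here do not give strand and multi-mapping settings.

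The steps of low FPKM values gave whole reads for all 26139 genes (tolerance 0.03 reads). Of the 9 columns, none was identical to another, and replicates differed beyond sampling noise (chi-square per gene 23.5 to 262).

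Values were tested as log2(FPKM + 1) with limma 3.58.1 in R 4.3.3 (group means over all 9 libraries, empirical Bayes with a trend), for the 11617 genes that reached an FPKM of 1 in 3 or more libraries. P-values were adjusted by Benjamini-Hochberg over all of them, at a threshold of 0.05. Fold differences of low genes are understated by the pseudocount of 1. Simulated data had the real within-group spread of each of 11617 genes, with 50 genes changed at each fold and others by larger folds. There the model recovered 72% of 2-fold and 40% of 1.5-fold changes of FPKM + 1 for IgAN against WT. All simulated libraries had the same quality, unlike the real ones, and folds of low genes were not folds of FPKM. The genes changed by larger folds can also ease the Benjamini-Hochberg cutoff. Changed genes were drawn from all genes tested, not from the members. These shares may therefore be too high for the real data. Voom on recovered reads was an alternative.

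Of the members, 1 is counted but not reported here by name, and the others were named. Values per library are given for the 3 tested members with the smallest p in each direction of each comparison, the 6 highest members and paralog pairs. Slc25a2, Slc25a27, Slc25a30 and Slc25a48 were added after their values were seen.

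Coding sequences came from GENCODE M21 (GRCm38). Since the table's build is GRCm39, no genome coordinates are given. Figures were drawn with matplotlib 3.10.9.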

Additional observations from a re-analysis of the deposited data

How the results depend on the processing

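Each comparison was recomputed under 22 alternatives, of which 1 (replicate 1 of both WT and IgAN left out) was added after seeing the data. The count of members past the threshold stayed at 0 under every alternative except library quality weights. With weights it was 3 of 38 in IgAN against WT (Slc25a33, Slc25a39 and Slc25a40, limma adjusted p = 0.0211, 0.0472 and 0.0187) and 1 of 38 in GQYS against IgAN (Slc25a21, adjusted p = 0.0359). The calls over all 11617 tested genes went from 41 to 655 and from 23 to 404. For GQYS against WT, 0 members passed with weights, while the calls over all genes went from 0 to 53. Those weights were 0.171 for WT replicate 1 and 3.202 for WT replicate 2. Leaving out single libraries gave 0 to 0 members in each comparison. Over all genes it gave 14 to 65 calls in IgAN against WT and 6 to 54 in GQYS against IgAN. Fitting the 2 groups alone gave 11 and 43 calls, and voom on the recovered reads 33 and 16. Of 114 results (38 tested members in 3 comparisons), 56 took the other sign under at least 1 alternative, and none of the 9 at an unadjusted p below 0.05 did. Those 9 were picked by small p in these same libraries, so their kept sign is no separate support. Slc25a40 in IgAN against WT ranged from -0.53 to -0.20 on the log2 scale and Slc25a25 from -0.96 to -0.52.

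With the replicate block, 0 members passed in any comparison, and all-gene calls were 68, 26 and 0. The numbers are not stated to pair libraries. Deviations from the group mean of log2(FPKM + 1) were correlated between libraries of different groups. Same-numbered libraries correlated at 0.581, 0.321 and 0.223 for replicate 1 and 0.467, 0.395 and 0.350 for replicate 2. For replicate 3 the values were 0.0780, -0.364 and -0.100. Differently numbered libraries ranged from -0.629 (WT replicate 1 with IgAN replicate 2) to 0.526 (WT replicate 3 with IgAN replicate 2). The members' power is limited by 3 libraries a group: the median 95% interval reached 0.30 on the log2 scale to either side.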
